A study of Homo sapiens with 6 samples.

Results

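Long intergenic noncoding RNA genes that carry a numbered LINC symbol were examined in 6 RNA-seq libraries from HK2 cells, an immortalised line of human renal proximal tubule epithelium. A gene was included when its symbol was LINC followed only by digits and when its count reached 30 in at least 3 of the 6 libraries. Of 958 such genes with a count in any library, 274 met this rule and 684 did not, and the count table held 61806 genes in all. The members were thus chosen by their counts, so their presence in these cells is the rule and not a result. The difference between the groups was not used by the rule, but a gene that is high in only 1 group can enter through that group. Through 3 immunoprecipitates alone 4 members entered and through 3 lysates alone 7 entered, whereas 144 were at or above 30 counts in all 6 libraries. The members nearest to the limit included LINC00551, LINC01215, LINC01524, LINC02331 and LINC02960, each with a third-highest count of 31. The nearest genes left out included LINC01443, LINC01561 and LINC02019, each with a third-highest count of 29.

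A plasmid for VMP1 with a FLAG tag had been introduced into all cells. VMP1 is an endoplasmic reticulum membrane protein that takes part in autophagosome formation, and the cells were collected 48 h after transfection. The lysate group was 3 libraries of total lysate, which the titles call positive controls, and the FLAG IP group was 3 libraries of RNA recovered with anti-FLAG magnetic beads (RNA immunoprecipitation). The treatment field of the labels writes the construct with a different trailing number in every sample, while the titles and the design text name VMP1 alone. Cells without the construct, or a precipitation with a control antibody, were not analysed here, so RNA bound through VMP1 and RNA held by the beads cannot be told apart. The labels do not say whether the 3 libraries of a group came from separate cultures, so every p-value reflects the variation among the deposited libraries alone, and this could be technical.

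Long intergenic noncoding RNAs are transcribed by RNA polymerase II, usually capped and polyadenylated like messenger RNAs, and lie at least partly outside protein-coding genes. Many remain in the nucleus, and most are present at far lower levels than messenger RNAs. A few have described roles as scaffolds for chromatin or RNA-binding proteins, as hosts of microRNAs or as templates of micropeptides, and many numbered LINC genes are known mainly from tumours.

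Library totals lay between 77753608 and 92948069 counts in the lysates and between 54363555 and 59293096 counts in the immunoprecipitates. The minimum of 30 counts was therefore worth 0.323 to 0.386 CPM (the count scaled to a common library total) in the lysates and 0.506 to 0.552 CPM in the immunoprecipitates. Over all genes the lysates correlated with each other at r of 0.987 to 0.989 on a log2 CPM scale, FLAG IP 1 with FLAG IP 3 at 0.95, and FLAG IP 2 with the other two at 0.86 and 0.833. VMP1 itself read 291, 282 and 290 CPM in lysates 1 to 3 and 2568, 267 and 2894 CPM in FLAG IP 1 to 3, so the library labelled FLAG IP 2 did not carry the excess of VMP1 seen in the other two. Marker sums also set FLAG IP 2 apart. Of 14 fibroblast markers, 13 were in the table. They summed to 301 to 348 CPM in the lysates, 73.5 and 84.8 CPM in FLAG IP 1 and 3, and 1378 CPM in FLAG IP 2. The excess was uneven between genes. LOX read 123 to 130 CPM in the lysates and 537 CPM in FLAG IP 2, and COL5A1 7.70 to 8.89 and 480 CPM. COL1A1, COL1A2, PDGFRB, PDGFRA and THY1 were also above all lysates there. LUM fell from 81.4 to 86.4 CPM in the lysates to 17.5 CPM, and DCN, COL3A1, COL6A3, FAP and POSTN lay within the lysate range. The 18 neutrophil markers summed to 430 to 771 CPM in the lysates and to 156, 534 and 23.3 CPM in FLAG IP 1, 2 and 3. The kidney tubule epithelium list, 15 of 16 in the table, summed to 3326 to 3405 CPM in the lysates and 1923 to 2339 CPM in the immunoprecipitates. The part of any of these in the members' values was not tested. For most members described as having risen or fallen, the test is therefore given with and without FLAG IP 2. Subgroup counts and neighbouring genes are given without it.

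The promoters of 5 members are shown because the values of these genes carry the patterns described here. LINC00472, LINC01322 and LINC00839 were high in FLAG IP 1 and 3 and low in FLAG IP 2, LINC00460 had the opposite order, and LINC01106 was the member that passed the test over all 6 libraries. Each sequence is the RefSeq promoter on build GRCh38.p14, from 250 bases before to 50 bases after the annotated start, written 5′ to 3′ on the gene's strand. Capitals mark matches on either strand to any of the 6 motifs searched. The TATA box was searched as TATAAA. The CCAAT box was searched as its name spells. The GC box was searched as GGGCGG. The AP-1 motif was searched as TGANTCA. Capitals that run together hold overlapping or adjoining matches.
LINC00472: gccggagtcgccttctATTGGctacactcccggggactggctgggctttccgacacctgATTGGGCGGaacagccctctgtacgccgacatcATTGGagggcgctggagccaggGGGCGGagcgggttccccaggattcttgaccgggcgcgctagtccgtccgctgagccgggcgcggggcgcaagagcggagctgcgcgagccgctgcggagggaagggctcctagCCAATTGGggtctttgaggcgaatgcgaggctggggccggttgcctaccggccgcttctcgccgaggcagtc
LINC01322: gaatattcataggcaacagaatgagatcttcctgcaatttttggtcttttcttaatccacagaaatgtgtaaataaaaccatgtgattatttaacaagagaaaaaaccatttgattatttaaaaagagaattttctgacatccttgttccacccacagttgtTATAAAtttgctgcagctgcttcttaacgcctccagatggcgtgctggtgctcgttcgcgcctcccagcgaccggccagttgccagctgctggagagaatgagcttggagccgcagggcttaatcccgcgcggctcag
LINC00839: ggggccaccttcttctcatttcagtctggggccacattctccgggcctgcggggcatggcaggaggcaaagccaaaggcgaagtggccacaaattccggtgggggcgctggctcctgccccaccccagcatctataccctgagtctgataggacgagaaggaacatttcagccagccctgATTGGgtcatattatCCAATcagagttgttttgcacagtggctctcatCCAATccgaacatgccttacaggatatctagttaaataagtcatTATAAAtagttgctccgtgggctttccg
LINC00460: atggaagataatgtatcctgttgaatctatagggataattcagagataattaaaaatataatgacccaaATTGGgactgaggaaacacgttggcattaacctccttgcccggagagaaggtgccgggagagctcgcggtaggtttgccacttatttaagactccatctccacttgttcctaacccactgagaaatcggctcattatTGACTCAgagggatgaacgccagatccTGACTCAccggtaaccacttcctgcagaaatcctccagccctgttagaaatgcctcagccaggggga
LINC01106: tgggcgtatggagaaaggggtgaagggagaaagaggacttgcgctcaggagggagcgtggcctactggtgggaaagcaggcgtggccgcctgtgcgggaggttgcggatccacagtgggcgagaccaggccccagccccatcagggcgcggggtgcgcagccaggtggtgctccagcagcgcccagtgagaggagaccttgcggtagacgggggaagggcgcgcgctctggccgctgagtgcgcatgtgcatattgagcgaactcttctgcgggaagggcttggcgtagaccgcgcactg
These windows are chr6:71420696-71420995 on the minus strand for LINC00472, chr3:165206698-165206997 on the plus strand for LINC01322, chr10:42475241-42475540 on the plus strand for LINC00839, chr13:106376314-106376613 on the plus strand for LINC00460 and chr2:110384487-110384786 on the minus strand for LINC01106. The LINC00472 window held 5 matches to the CCAAT box and 2 to the GC box. LINC01322 had 1 TATA match, and LINC00839 had 1 TATA and 3 CCAAT matches. The TATA match of LINC01322 lay before the annotated start, and that of LINC00839 within the 50 bases after it. The LINC00460 window held 1 CCAAT and 2 AP-1 matches. None of the 6, which also included a cyclic AMP response element (TGACGTCA) and an E-box (CACGTG), was found in the LINC01106 window, whose RefSeq start lay 1020 bp from the start of the gene's leading transcript, the one with the most counts. For the other 4 genes the distance between the RefSeq start and that transcript's start was 0, 3, 11 and 43 bp, in the order LINC00472, LINC01322, LINC00839 and LINC00460.

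RefSeq promoters were matched by symbol for 203 of the 274 members. A TATA box was present in 12.3% of the members' windows and in 11.5% of all 35114 windows, and a GC box in 43.3% and 45.0%. A CCAAT box was present in 42.4% of the members' windows and 34.6% of all windows, an AP-1 motif in 12.3% and 7.71%, a cyclic AMP response element in 3.94% and 1.85%, and an E-box in 6.40% and 7.26%. Median GC content was 56% for members and 58.7% for all windows, with a median of 10 and 14 CpG dinucleotides. These shares describe letters in a window and were not tested.

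LINC00472 is also the gene in whose span the miR-30a and miR-30c-2 hairpins lie, on the same strand. Of the 274 members, 7 spanned a RefSeq microRNA hairpin and 4 of these had it on their own strand, namely LINC00461, LINC00472, LINC01138 and LINC01618. The mature microRNAs of the hairpins in LINC00472 are shown with the seed (bases 2 to 8) in capitals, because both 5p arms share 1 seed while the 3p arms do not.
hsa-miR-30a-5p: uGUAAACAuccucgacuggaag
hsa-miR-30c-5p: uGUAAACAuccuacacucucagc
hsa-miR-30a-3p: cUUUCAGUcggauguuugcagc
hsa-miR-30c-2-3p: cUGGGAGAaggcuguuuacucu
The hairpins lie at chr6:71403551-71403621 and chr6:71376960-71377031 on build GRCh38.p14. The libraries were made from polyadenylated RNA with long inserts, so mature microRNAs were not measured and the values below are those of the long transcripts.

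Most members were low. The mean level over the 3 lysates was under 1 CPM for 121 members, from 1 to 10 CPM for 126 and 10 CPM or more for 27. Per length, the median lysate level was 0.365 FPKM (fragments scaled by transcript length and by library) for members against 3.99 FPKM for 14870 tested protein-coding genes. The highest member per length was LINC00973, with 43.7, 44.0 and 42.4 FPKM in the lysates and 59.1, 11.7 and 51.4 FPKM in FLAG IP 1, 2 and 3. LINC00963 held the most counts in every library but FLAG IP 2, with 4.98 to 5.67% of all member counts in the lysates, 12.7% in FLAG IP 1 and 14.7% in FLAG IP 3. In FLAG IP 2 the leading member was LINC02693, with 8.59% of member counts.

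The members together took 1196, 1157 and 1185 CPM in the lysates, and 2486, 1149 and 2368 CPM in FLAG IP 1, 2 and 3. FLAG IP 1 and 3 thus lay above all lysates and FLAG IP 2 lay just below them. All 274 members were detected in each lysate, while 271, 263 and 239 were detected in FLAG IP 1, 2 and 3, and 45 members had a count of 0 in at least 1 library. Relative to the lysate mean, the median member shifted by 0.61 in FLAG IP 1, -0.09 in FLAG IP 2 and 0.37 in FLAG IP 3 on the log2(CPM + 0.1) scale. Across members, which share libraries and are not replicates, the shifts of FLAG IP 1 and 3 correlated at Pearson r = 0.61, those of FLAG IP 1 and 2 at 0.13 and those of FLAG IP 2 and 3 at -0.00.

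**Figure D1:**
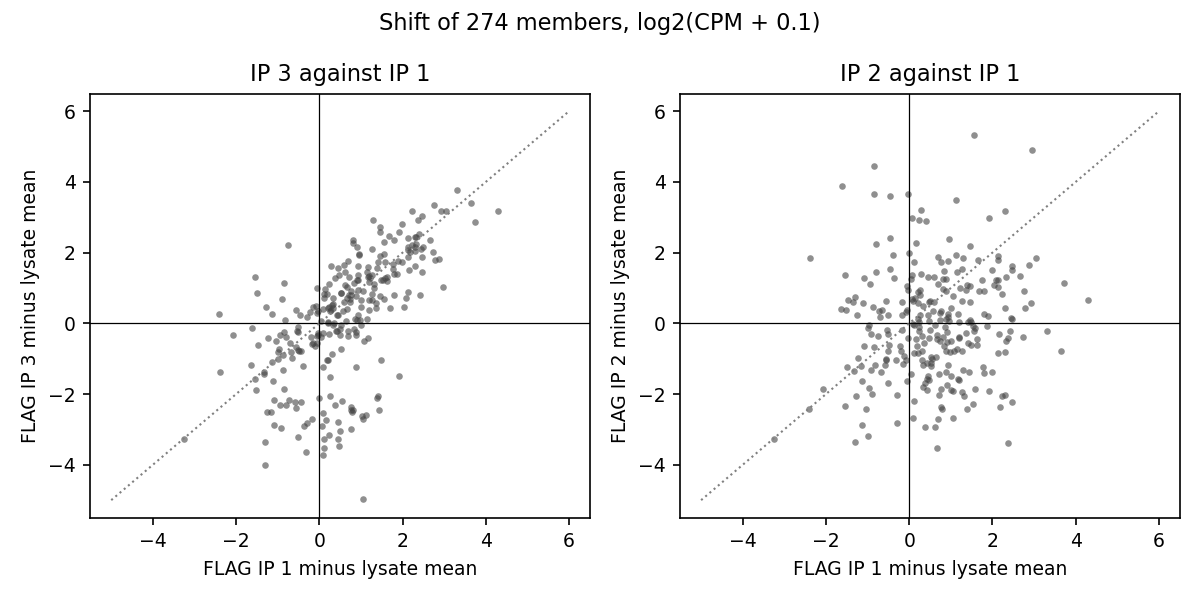
Shift of each of the 274 members in an immunoprecipitate from the mean of the 3 lysates, as a difference in log2(CPM + 0.1), with FLAG IP 1 on both horizontal axes and FLAG IP 3 (left) or FLAG IP 2 (right) on the vertical axes. Each point is 1 member and the dotted line marks equal shifts; points follow that line more closely on the left (r = 0.61) than on the right (r = 0.13).

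The question of the comparison is which of these RNAs were enriched or depleted in the anti-FLAG precipitate relative to the lysate. Over all 6 libraries, LINC01106 was higher in the precipitate and no member was lower at an adjusted p below 0.05 (edgeR quasi-likelihood test on library totals, Benjamini-Hochberg adjustment over 20593 genes). Over all genes tested, 0.165% were called higher and 0.34% lower, so 1 of 274 members is near the general share. At an unadjusted p below 0.05, 49 members were higher (17.9%, against 14.9% of all tested genes) and 7 lower (2.55%, against 7.1%) in edgeR. DESeq2 called 37 higher and 6 lower after adjustment, or 13.8% and 2.24% of the 268 members to which it gave an adjusted p, against 10.3% and 6.4% of all such genes. The 3 immunoprecipitates lay above all 3 lysates for 51 members (18.6%, against 16.1% of all tested genes) and below all 3 for 22 members (8.03%, against 14.6%). The median log2 fold change of the members was 0.52, and that of all tested genes was 0.19. With TMM in place of library totals, which is another estimate of library scale, the same 1 member was higher and 0 were lower, beside 0.16% and 0.5% of all genes.

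Without FLAG IP 2, 89 members rose and 14 fell in the same test over 22062 genes. That is 32.5% and 5.11% of the members, beside 28.4% and 22.7% of all tested genes. Protein-coding genes were called higher in 29.3% and lower in 30.3% of cases, and 3942 tested genes typed only as lncRNA that were not members in 27.6% and 5.20%. The median log2 fold change without FLAG IP 2 was 0.49 for members and 0.11 for all tested genes. The change to TMM lowers the log2 fold changes by a median of 0.176 without FLAG IP 2 and 0.137 over 6 libraries. Under TMM 71 members were called higher, all among the 89, and 18 lower, including all 14, beside 23.9% and 27.2% of all genes. Of the 89 members that rose, 76 did so at least 2-fold and 40 at least 4-fold. In FLAG IP 2 itself, 38 of these 89 lay above all lysates, 12 within their range and 39 below all of them.

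LINC01106, a gene described in tumour studies, read 2.59, 2.84 and 2.68 CPM in lysates 1 to 3 and 12.2, 9.57 and 11.7 CPM in FLAG IP 1 to 3. All 3 immunoprecipitates lay clearly above all lysates, and FLAG IP 2 was the lowest of them. The log2 fold change was 2.05 ± 0.27 (SE, adjusted p = 0.0473), and 2.14 ± 0.18 (SE, adjusted p = 0.000164) without FLAG IP 2. The call over 6 libraries was close to the threshold: leaving out any 1 library other than FLAG IP 2 gave adjusted p-values from 0.175 to 0.486. The gene lies at chr2:110375138-110384442 on the minus strand and overlaps a pseudogene, ZBTB45P2, on the opposite strand. Its counts were spread over transcripts unevenly, since transcript ENST00000654118 held 0, 0 and 43.4% of them in lysates 1 to 3 and 68.6, 59.8 and 19.3% in FLAG IP 1 to 3. Such splits between overlapping transcripts are estimates.

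The members with the most counts were high in FLAG IP 1 and 3 and low in FLAG IP 2. LINC00963, which is best known from prostate cancer, read 59.5, 65.7 and 65.7 CPM in the lysates and 315, 35.9 and 349 CPM in FLAG IP 1, 2 and 3. FLAG IP 1 and 3 were about the same and far above the lysates, and FLAG IP 2 was below every lysate. The log2 fold change was 1.87 ± 0.76 (SE, adjusted p = 0.219) over 6 libraries and 2.38 ± 0.07 (SE, adjusted p = 6.23e-06) without FLAG IP 2. It lies at chr9:129476946-129513687, and its 2-exon transcript of 9557 nt held 62.3 to 67.7% of its counts in the lysates, 84.9% in FLAG IP 1, 67.7% in FLAG IP 2 and 82.7% in FLAG IP 3.

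LINC01322 at chr3:165206933-165846519 read 43.3, 35.5 and 33.7 CPM in the lysates and 170.3, 7.19 and 150.4 CPM in FLAG IP 1, 2 and 3. It rose when FLAG IP 2 was left out, with a log2 fold change of 2.1 ± 0.12 (SE, adjusted p = 3.39e-05), and over 6 libraries the value was 1.54 ± 0.96 (SE, adjusted p = 0.386). FLAG IP 2 held less than any lysate. The gene overlaps BCHE, the butyrylcholinesterase gene on the opposite strand, whose own log2 fold change without FLAG IP 2 was -0.69. Its main 6-exon transcript held 63.1 to 66.9% of its counts in the lysates, 71.3 and 63.4% in FLAG IP 1 and 3, and 32.5% in FLAG IP 2.

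LINC00472 at chr6:71343427-71420745, read 42.8, 34.0 and 40.5 CPM in the lysates and 155, 14.8 and 130.0 CPM in FLAG IP 1, 2 and 3. The same order appears as for LINC00963, with FLAG IP 2 below all lysates. The log2 fold change was 1.87 ± 0.12 (SE, adjusted p = 5.46e-05) without FLAG IP 2 and 1.36 ± 0.76 (SE, adjusted p = 0.338) with it. The leading transcript of 9515 nt (ENST00000651660), at chr6:71407864-71420745, held 42.5 to 48.6% of its counts in the lysates and 63.8, 46.8 and 70.9% in FLAG IP 1, 2 and 3. This transcript's span reaches neither microRNA hairpin. A 6-exon transcript (ENST00000625013) at chr6:71373251-71420148, whose span holds both hairpins, read 16.7, 15.9 and 15.7 CPM in the lysates and 53.1, 6.51 and 34.5 CPM in FLAG IP 1, 2 and 3.

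LINC00839 read 53.2, 50.0 and 51.1 CPM in the lysates and 127, 20.5 and 102 CPM in FLAG IP 1, 2 and 3, and had a log2 fold change of 1.15 ± 0.10 (SE, adjusted p = 0.000182) without FLAG IP 2 and 0.69 ± 0.60 (SE, adjusted p = 0.531) with it. LINC02274, a 1-transcript gene, read 33.8, 29.9 and 28.7 CPM in the lysates and 80.7, 5.61 and 91.8 CPM in the immunoprecipitates, with a log2 fold change of 1.49 ± 0.10 (SE, adjusted p = 5.79e-05) without FLAG IP 2 and 0.95 ± 0.86 (SE, adjusted p = 0.552) with it. LINC00511, described as a driver of proliferation in several tumours, read 26.7, 28.4 and 31.2 CPM in the lysates and 64.8, 9.62 and 87.5 CPM in the immunoprecipitates, with a log2 fold change of 1.40 ± 0.14 (SE, adjusted p = 0.000336) without FLAG IP 2 and 0.91 ± 0.71 (SE, adjusted p = 0.482) with it. In these 3 genes FLAG IP 1 and 3 lay above all lysates and FLAG IP 2 below all of them. LINC02210 read 36.2, 39.8 and 38.0 CPM in the lysates and 73.0, 16.6 and 73.5 CPM in the immunoprecipitates, with a log2 fold change of 0.95 ± 0.07 (SE, adjusted p = 8.35e-05) without FLAG IP 2 and 0.52 ± 0.53 (SE, adjusted p = 0.601) with it, and shares its strand and locus with the readthrough gene LINC02210-CRHR1, so its reads may be divided between both. LINC00973 differed least among these leading members, from 44.2, 44.4 and 42.8 CPM to 59.1, 11.8 and 51.8 CPM. Its log2 fold change was -0.10 ± 0.55 (SE, adjusted p = 0.935) over 6 libraries and turned to 0.34 ± 0.08 (SE, adjusted p = 0.0131) without FLAG IP 2. Under TMM its adjusted p without that library was 0.116 (edgeR), above the threshold.

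**Figure D2:**
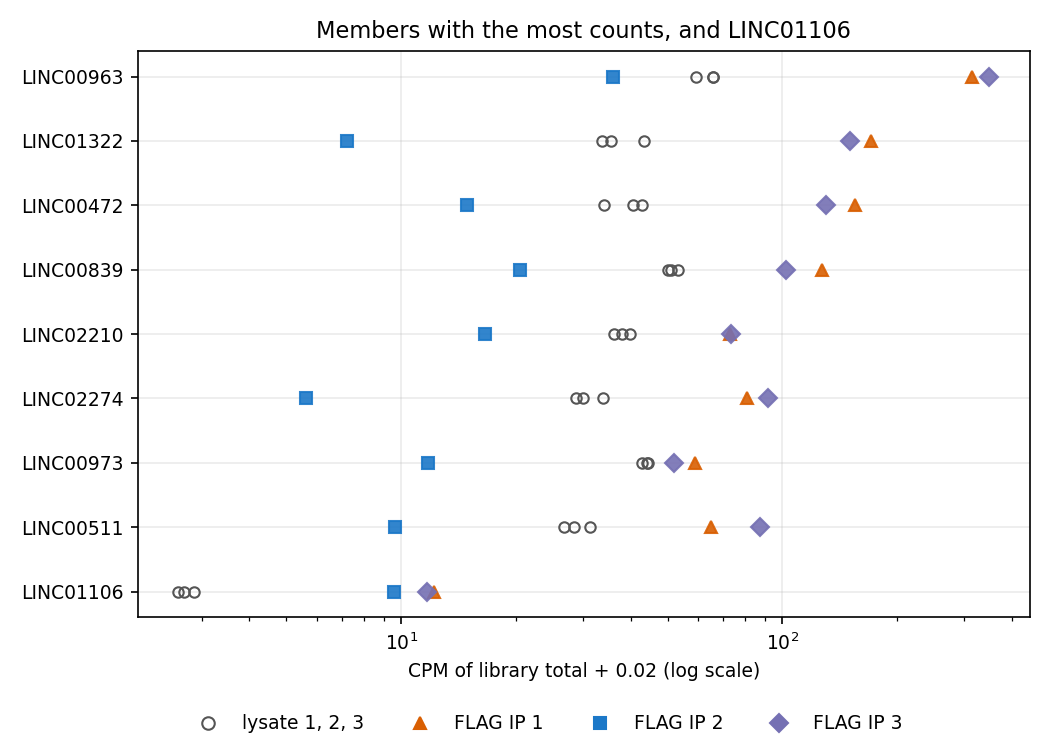
Level of the 8 members with the highest mean CPM, and of LINC01106, in each of the 6 libraries, as CPM of the library total plus 0.02 on a log axis; open circles are the 3 lysates and filled symbols the 3 immunoprecipitates. In the 8 leading members FLAG IP 2 lies to the left of every lysate and FLAG IP 1 and 3 to the right, while for LINC01106 (lowest row) all 3 immunoprecipitates lie to the right.

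Lower down the range, LINC01341 and LINC02977 had the same order and were chosen after their values were seen. LINC01341 read 1.66, 1.60 and 1.69 CPM in the lysates and 21.9, 0.920 and 18.4 CPM in FLAG IP 1, 2 and 3, with a log2 fold change of 3.06 ± 1.03 (SE, adjusted p = 0.171) over 6 libraries and 3.61 ± 0.17 (SE, adjusted p = 1.68e-05) without FLAG IP 2. It overlaps KIF28P on the opposite strand. LINC02977 read 8.73, 6.82 and 7.51 CPM in the lysates and 34.0, 4.27 and 40.9 CPM in the immunoprecipitates, with a log2 fold change of 2.28 ± 0.15 (SE, adjusted p = 5.96e-05) without FLAG IP 2 and 1.78 ± 0.75 (SE, adjusted p = 0.235) with it. It lies 1640 bp downstream of SUSD1, whose log2 fold change without FLAG IP 2 was -0.65.

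A second group was above the lysates in every immunoprecipitate without passing the test over 6 libraries. LINC02969 read 7.11, 6.53 and 7.07 CPM in the lysates and 53.0, 10.3 and 63.5 CPM in FLAG IP 1, 2 and 3. FLAG IP 2 exceeded the lysates here only slightly. Its log2 fold change was 2.61 ± 0.65 (SE, adjusted p = 0.116), and 3.08 ± 0.11 (SE, adjusted p = 8.15e-06) without FLAG IP 2. LINC02614 read 1.29, 1.41 and 0.979 CPM in the lysates and 17.3, 2.78 and 9.43 CPM in the immunoprecipitates, with a log2 fold change of 3.00 ± 0.69 (SE, adjusted p = 0.111) over 6 libraries and 3.45 ± 0.33 (SE, adjusted p = 0.000296) without FLAG IP 2. LINC00899, with a 1-exon leading transcript of 4158 nt, read 0.360, 0.563 and 0.355 CPM in the lysates and 4.15, 1.77 and 4.59 CPM in the immunoprecipitates, with a log2 fold change of 3.35 ± 0.37 (SE, adjusted p = 0.000508) without FLAG IP 2 and 3.03 ± 0.56 (SE, adjusted p = 0.0840) with it. Both genes were again highest in FLAG IP 1 or 3. The leading transcript of LINC00899 is typed as a retained intron. In lysate 2 a 3-exon transcript held more of its counts (57.1% against 24.5%).

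LINC02918 read 0.695, 0.805 and 1.42 CPM in the lysates and 6.87, 1.86 and 10.5 CPM in FLAG IP 1, 2 and 3, and LINC02986 0.219, 0.184 and 0.441 CPM in the lysates and 7.13, 0.478 and 3.24 CPM in the immunoprecipitates. For LINC02986 FLAG IP 2 lay just above the highest lysate. Both rose without FLAG IP 2, with log2 fold changes of 3.15 ± 0.40 (SE, adjusted p = 0.000972) and 4.19 ± 0.56 (SE, adjusted p = 0.00125), and with it the values were 2.71 ± 0.71 (SE, adjusted p = 0.124) and 3.67 ± 1.03 (SE, adjusted p = 0.134). Counts were low for LINC02960, which read 0.129, 0.138 and 0.0861 CPM in the lysates and 1.10, 0.570 and 1.69 CPM in the immunoprecipitates, and for LINC00216, which read 0.360, 0.207 and 0.129 CPM in the lysates and 1.17, 0.809 and 2.14 CPM in the immunoprecipitates. These last 2 are among the 4 members that entered through the immunoprecipitates alone, so a difference was built into their selection. LINC01583, the third of them named here, read 0.283, 0.138 and 0.0430 CPM in the lysates and 0.551, 0.975 and 1.45 CPM in the immunoprecipitates, with a log2 fold change of 2.69 ± 0.95 (SE, adjusted p = 0.0556) without FLAG IP 2 and 2.67 ± 0.88 (SE, adjusted p = 0.166) with it. LINC02968 read 0.399, 0.218 and 0.323 CPM in the lysates and 1.91, 3.57 and 1.15 CPM in the immunoprecipitates, with FLAG IP 2 the highest library. Without FLAG IP 2, the log2 fold changes of LINC02960, LINC00216 and LINC02968 were 3.55, 2.83 and 2.28 (adjusted p = 0.00339, 0.0117 and 0.0143, edgeR). With it they were 3.23, 2.56 and 2.81 (adjusted p = 0.104, 0.128 and 0.105, edgeR). The values of LINC02960 and LINC00216 remain limited by their selection.

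Among 2 further members, chosen after their values were seen, the 3 immunoprecipitates were also above the lysates. LINC00342 read 8.72, 8.83 and 8.39 CPM in the lysates and 43.4, 21.7 and 41.6 CPM in FLAG IP 1, 2 and 3, with a log2 fold change of 2.04 ± 0.31 (SE, adjusted p = 0.0629) over 6 libraries and 2.30 ± 0.09 (SE, adjusted p = 1.12e-05) without FLAG IP 2. It lies 2956 bp downstream of ANKRD36C, a member of a family of near-identical copies, whose log2 fold change without FLAG IP 2 was 2.52, and reads may be divided between such copies. LINC00294 read 7.63, 7.55 and 8.23 CPM in the lysates and 36.7, 13.9 and 36.3 CPM in the immunoprecipitates, with a log2 fold change of 2.22 ± 0.11 (SE, adjusted p = 1.68e-05) without FLAG IP 2 and 1.89 ± 0.40 (SE, adjusted p = 0.104) with it. It is a 1-exon gene of 3306 nt that overlaps CSTF3, PIGCP1 and TCP11L1.

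**Figure D3:**
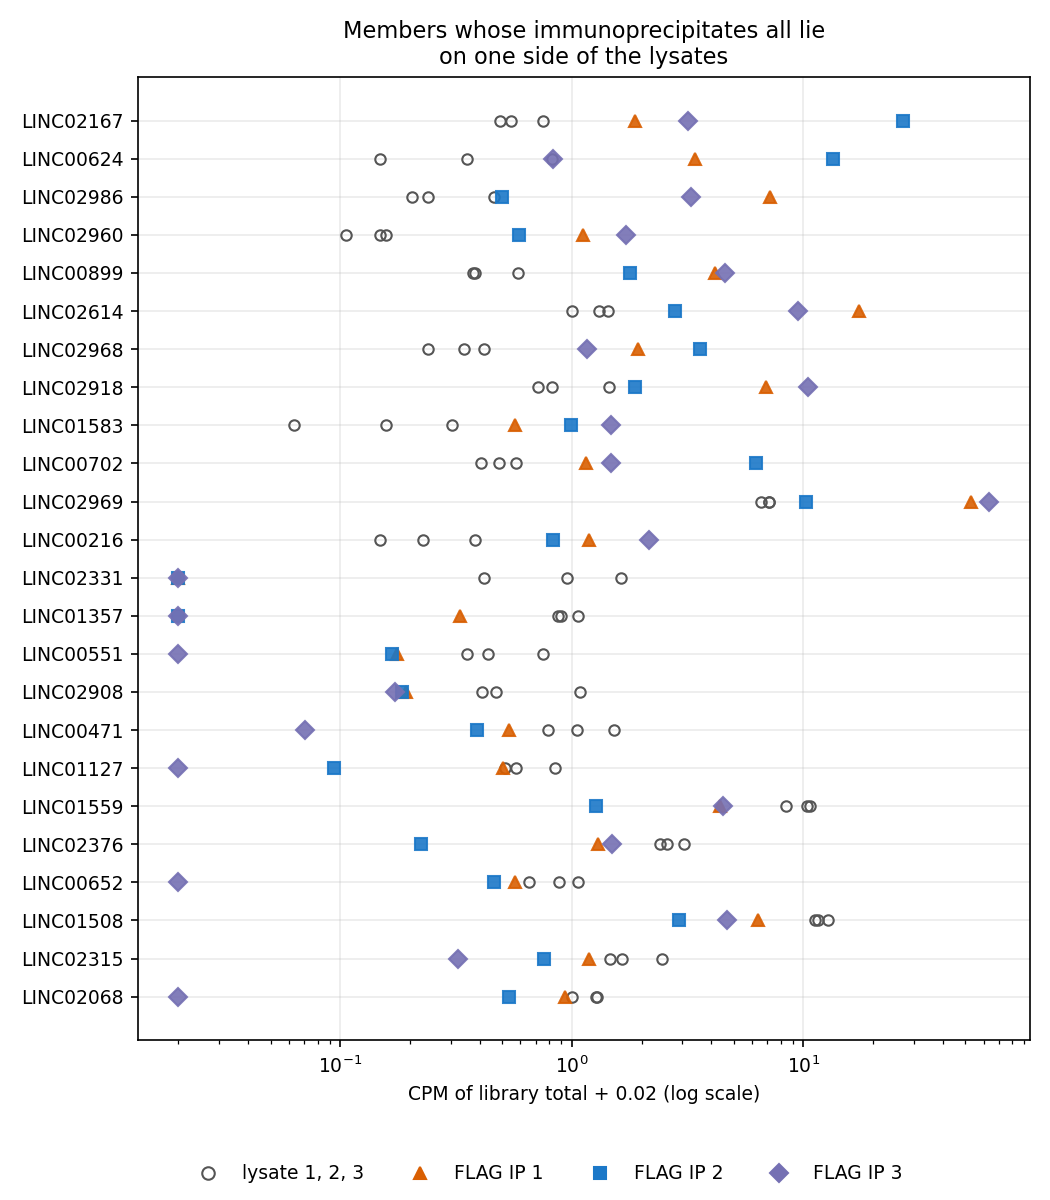
Level of the members named for the largest and smallest fold changes among those whose 3 immunoprecipitates all lie on 1 side of the 3 lysates, as CPM of the library total plus 0.02 on a log axis, 1 row per member. The upper 12 rows are the members with every immunoprecipitate to the right of the lysates and the lower 12 those with every immunoprecipitate to the left; symbols at the left edge of the plotted values are libraries with a count of 0.

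Members low in the precipitate were fewer. LINC02331 had 31, 81 and 149 counts in the lysates, or 0.399, 0.931 and 1.60 CPM, and 0 counts in all 3 immunoprecipitates. Taking 3 counts per library as the floor, its mean level was at least 18.6-fold lower in the precipitate, and the adjusted p was 0.0969 over 6 libraries and 0.00543 without FLAG IP 2. The 3 lysates themselves differed widely for this gene, which is 1 of the 7 that entered through the lysates alone. LINC01559 read 10.7, 8.36 and 10.3 CPM in the lysates and 4.36, 1.25 and 4.49 CPM in FLAG IP 1, 2 and 3, and LINC01508 12.7, 11.6 and 11.2 CPM in the lysates and 6.35, 2.87 and 4.67 CPM in the immunoprecipitates. For both, all immunoprecipitates lay below all lysates and FLAG IP 2 was the lowest library. Their log2 fold changes were -1.54 ± 0.52 (SE, adjusted p = 0.172) and -1.35 ± 0.36 (SE, adjusted p = 0.124) over 6 libraries, and -1.15 ± 0.20 (SE, adjusted p = 0.00389) and -1.10 ± 0.20 (SE, adjusted p = 0.00490) without FLAG IP 2. LINC02376 read 3.04, 2.39 and 2.55 CPM in the lysates and 1.27, 0.202 and 1.47 CPM in the immunoprecipitates, with a log2 fold change of -0.95 ± 0.32 (SE, adjusted p = 0.0457) without FLAG IP 2 and -1.44 ± 0.74 (SE, adjusted p = 0.303) with it.

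LINC00958 and LINC01234, given below, were also under the lysates in every immunoprecipitate and passed the test without FLAG IP 2. The members described next were below the lysates in every immunoprecipitate but did not pass the test with or without FLAG IP 2. LINC01357 read 0.849, 0.874 and 1.04 CPM in the lysates and 0.310, 0 and 0 CPM in the immunoprecipitates, LINC02908 1.07, 0.391 and 0.452 CPM in the lysates and 0.172, 0.166 and 0.152 CPM in the immunoprecipitates, and LINC00551 0.733, 0.414 and 0.334 CPM in the lysates and 0.155, 0.147 and 0 CPM in the immunoprecipitates. These 3 also entered through the lysates alone, as did LINC01127. LINC00471 read 0.772, 1.03 and 1.5 CPM in the lysates and 0.517, 0.368 and 0.0506 CPM in the immunoprecipitates, and LINC02315 1.63, 1.45 and 2.43 CPM in the lysates and 1.17, 0.736 and 0.304 CPM in the immunoprecipitates. In LINC01127, LINC00652 and LINC02068 the highest immunoprecipitate came within 0.1 CPM of the lowest lysate, and FLAG IP 3 had no count. LINC00551 starts 71 bp from ARGLU1 in the divergent orientation, and ARGLU1, a splicing cofactor, had a log2 fold change of 2.52 without FLAG IP 2.

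FLAG IP 2 differed from FLAG IP 1 and 3 in both directions. It was above all 3 lysates for 112 members (40.9%, beside 40.6% of all tested genes) and below all 3 for 122 (44.5%, beside 40.1%). At a change of at least 2-fold from the lysate mean, 65 members were above (23.7%, beside 13.8% of all genes) and 77 below (28.1%, beside 14.0%). In FLAG IP 1 and 3 together, 66 members were at least 2-fold above in both libraries (24.1%, beside 17.9%) and 15 at least 2-fold below in both (5.47%, beside 12.1%).

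LINC00460, described as promoting migration in several carcinomas, showed the largest difference of FLAG IP 2 from the mean of FLAG IP 1 and 3 on the log2(CPM + 0.1) scale (5.01), and LINC01232 was next (5.00). It read 1.22, 1.78 and 2.35 CPM in the lysates and 0.913, 23.0 and 0.405 CPM in FLAG IP 1, 2 and 3. FLAG IP 2 thus lay far above the other 5 libraries, and the log2 fold change was 2.18 ± 1.45 (SE, adjusted p = 0.413) over 6 libraries but -1.44 ± 0.55 (SE, adjusted p = 0.0726) without FLAG IP 2. LINC01232 read 0.424, 0.368 and 0.301 CPM in the lysates and 0.155, 9.95 and 0.287 CPM in the immunoprecipitates, LINC01411 0.347, 0.598 and 0.678 CPM in the lysates and 0.103, 9.20 and 0.472 CPM in the immunoprecipitates, and LINC01224 0.579, 0.391 and 0.204 CPM in the lysates and 0.241, 5.59 and 0 CPM in the immunoprecipitates. All 3 had positive log2 fold changes over 6 libraries (3.24, 2.58 and 2.31) that were negative without FLAG IP 2 (-0.72, -0.91 and -1.69), and none passed the test. The fibroblast marker sum, uneven between its genes, was also highest in FLAG IP 2, as given above. Its part in these values was not tested.

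LINC02693, chosen after its values were seen, read 14.7, 11.4 and 14.0 CPM in the lysates and 17.7, 98.7 and 11.5 CPM in FLAG IP 1, 2 and 3, so that its excess lay in FLAG IP 2. LINC02167 read 0.733, 0.471 and 0.527 CPM in the lysates and 1.86, 26.8 and 3.17 CPM in the immunoprecipitates and had the largest log2 fold change of any member over 6 libraries, 4.20 ± 1.13 (SE, adjusted p = 0.127). It still rose when FLAG IP 2 was left out, with a log2 fold change of 2.12 ± 0.44 (SE, adjusted p = 0.00832). Its span holds 8 5S ribosomal RNA pseudogenes on the same strand, to which the authors' counting could assign some of its reads. LINC00624 read 0.797, 0.333 and 0.129 CPM in the lysates and 3.37, 13.4 and 0.810 CPM in the immunoprecipitates, with a log2 fold change of 2.32 ± 0.92 (SE, adjusted p = 0.0786) without FLAG IP 2 and 3.80 ± 1.21 (SE, adjusted p = 0.160) with it, and FLAG IP 3 only just exceeded the highest lysate. LINC00702 read 0.386, 0.552 and 0.463 CPM in the lysates and 1.14, 6.24 and 1.45 CPM in the immunoprecipitates, with a log2 fold change of 1.47 ± 0.48 (SE, adjusted p = 0.0445) without FLAG IP 2 and 2.65 ± 0.79 (SE, adjusted p = 0.146) with it. TMM ended the call without FLAG IP 2 (adjusted p = 0.0682, edgeR).

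The opposite extreme was formed by members far lower in FLAG IP 2 than in FLAG IP 1 and 3, and 3 of the 4 had no count there. LINC00501 read 0.746, 0.793 and 1.38 CPM in the lysates and 5.27, 0 and 7.83 CPM in FLAG IP 1, 2 and 3, LINC02453 0.502, 0.310 and 0.183 CPM in the lysates and 1.83, 0 and 3.61 CPM in the immunoprecipitates, and LINC00607 1.25, 0.724 and 1.28 CPM in the lysates and 1.74, 0 and 2.24 CPM in the immunoprecipitates. The first 2 rose without FLAG IP 2, with log2 fold changes of 2.75 ± 0.39 (SE, adjusted p = 0.00152) and 3.03 ± 0.59 (SE, adjusted p = 0.00607), and LINC00607 had 0.88 ± 0.42 (SE, adjusted p = 0.132). With FLAG IP 2 the 3 values were 2.16 ± 1.61 (SE, adjusted p = 0.465), 2.45 ± 1.60 (SE, adjusted p = 0.407) and 0.29 ± 1.42 (SE, adjusted p = 0.925). The fourth was LINC01322, whose values are given above, with 7.19 CPM in FLAG IP 2. A count of 0 in FLAG IP 2 was found for 11 members.

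Of 32 numbered LINC genes listed for a described role, 20 were in the table and 16 were members. Without FLAG IP 2, 7 of these 16 rose and 2 fell, beside 28.4% and 22.7% of all tested genes, and their median log2 fold change was 0.22 against 0.11 for all genes. The 7 were LINC00467, LINC00511, LINC00839, LINC00963, LINC01089, LINC01106 and LINC01128, of which LINC01106 alone passed over 6 libraries. LINC00467, reported to encode a micropeptide, read 5.13, 4.60 and 5.24 CPM in the lysates and 15.0, 4.54 and 16.8 CPM in FLAG IP 1, 2 and 3, with a log2 fold change of 1.67 ± 0.16 (SE, adjusted p = 0.000292) without FLAG IP 2 and 1.28 ± 0.51 (SE, adjusted p = 0.211) with it. LINC01089 read 6.20, 4.22 and 4.63 CPM in the lysates and 15.5, 3.18 and 12.4 CPM in the immunoprecipitates, with a log2 fold change of 1.48 ± 0.23 (SE, adjusted p = 0.00233) without FLAG IP 2 and 1.05 ± 0.59 (SE, adjusted p = 0.336) with it. LINC01128 read 12.5, 11.9 and 12.8 CPM in the lysates and 34.5, 18.7 and 21.2 CPM in the immunoprecipitates, with a log2 fold change of 1.17 ± 0.21 (SE, adjusted p = 0.00431) without FLAG IP 2 and 1.00 ± 0.29 (SE, adjusted p = 0.137) with it, and was above the lysates in all 3.

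The 2 that fell were LINC00958 and LINC01234, both known from epithelial tumours. LINC00958 read 35.3, 42.0 and 43.8 CPM in the lysates and 25.1, 15.5 and 22.9 CPM in FLAG IP 1, 2 and 3, with a log2 fold change of -0.75 ± 0.12 (SE, adjusted p = 0.00258) without FLAG IP 2. LINC01234 read 12.6, 11.4 and 13.0 CPM in the lysates and 5.75, 7.87 and 2.68 CPM in the immunoprecipitates, with a log2 fold change of -1.55 ± 0.34 (SE, adjusted p = 0.0103). In both genes every immunoprecipitate lay below every lysate, and the values over 6 libraries were -0.93 ± 0.24 (SE, adjusted p = 0.123) and -1.18 ± 0.42 (SE, adjusted p = 0.187). LINC00662, the member with the most annotated transcripts (54), read 26.7, 25.3 and 25.1 CPM in the lysates and 27.1, 41.3 and 33.9 CPM in the immunoprecipitates, and LINC00665, also reported to encode a micropeptide, 21.7, 24.8 and 24.7 CPM in the lysates and 33.5, 36.8 and 21.0 CPM in the immunoprecipitates. LINC00205 read 44.2, 40.4 and 42.6 CPM in the lysates and 49.2, 23.6 and 42.3 CPM in the immunoprecipitates, and LINC00339 6.07, 6.09 and 6.07 CPM in the lysates and 7.33, 7.21 and 2.06 CPM in the immunoprecipitates. LINC01116 read 5.09, 5.78 and 4.95 CPM in the lysates and 4.51, 3.33 and 6.64 CPM in the immunoprecipitates, and LINC00842 0.540, 0.759 and 0.678 CPM in the lysates and 0.689, 1.84 and 0 CPM in the immunoprecipitates. None of these 6 passed the test in either fit, and neither did LINC00460, the remaining member of the list.

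The 14 members that fell without FLAG IP 2 also included LINC00528, LINC00630, LINC00674, LINC01278, LINC01291, LINC01444, LINC01638 and LINC02987, none of which passed over 6 libraries. They are named because the group is small and were chosen after their values were seen. LINC01278 was the most abundant of these 8, with 35.5, 38.1 and 40.9 CPM in the lysates and 20.7, 53.0 and 20.6 CPM in FLAG IP 1, 2 and 3. Its log2 fold change was -0.89 ± 0.09 (SE, adjusted p = 0.000429) without FLAG IP 2 and -0.28 ± 0.41 (SE, adjusted p = 0.718) with it, and FLAG IP 2 lay above every lysate. In FLAG IP 2, 5 of the 14 lay above all lysates, 2 within their range and 7 below.

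For comparison, 30 other long noncoding RNA genes were listed, among them nuclear RNAs and small nucleolar RNA hosts. Without FLAG IP 2, 16 of them were called higher and 4 lower by edgeR (53.3% and 13.3%, beside 28.4% and 22.7% of all tested genes). The 3 with the lowest p over 6 libraries were SNHG1, TUG1 and FTX, with adjusted p of 0.0546, 0.0704 and 0.096. MALAT1, a nuclear RNA, was named after its values were seen and read 204, 188 and 198 CPM in the lysates and 1836, 275 and 1982 CPM in FLAG IP 1, 2 and 3, the same order as LINC02969. Of numbered LINC genes under the count minimum, 165 could be tested without FLAG IP 2. Of these, 13 were higher and 16 lower (7.88% and 9.70%, beside 28.4% and 22.7% of all tested genes).

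Members differed in structure in ways the rule did not use. The leading transcript, the one with the most counts, had a median length of 2188 nt (range 520 to 9815) and the gene a median span of 20454 bp. Counts were summed over all 6 libraries to choose it, so a member's exon class depends in part on the immunoprecipitates. A 1-exon leading transcript was found for 39 members, 2 exons for 73, 3 exons for 66 and 4 or more for 96. When FLAG IP 2 was left out, 22 of the 39 members with a 1-exon leading transcript rose (56.4%), beside 29.9% of all tested genes with a 1-exon leading transcript and 37.2% of those typed only as lncRNA. The share was 28.8% with 2 exons, 21.2% with 3 exons and 33.3% with 4 or more, beside 27.9%, 25.5% and 28.5% of all tested genes in the same classes. Median log2 fold changes in the same order were 1.59, 0.34, 0.16 and 0.58. The differences between these classes were not tested, and class and fold change are not independent because both use the immunoprecipitate counts.

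Examples of 1-exon members that rose, beside LINC00899 and LINC00294, are LINC00938, LINC00641, LINC00667 and LINC00653, chosen after their values were seen. LINC00938, with the longest leading transcript (9815 nt), read 7.99, 7.01 and 7.42 CPM in the lysates and 27.9, 8.72 and 25.6 CPM in FLAG IP 1, 2 and 3, with a log2 fold change of 1.84 ± 0.13 (SE, adjusted p = 7.14e-05) without FLAG IP 2 and 1.47 ± 0.45 (SE, adjusted p = 0.154) with it. LINC00641 read 14.0, 12.1 and 11.0 CPM in the lysates and 45.2, 11.6 and 32.7 CPM in the immunoprecipitates, with a log2 fold change of 1.65 ± 0.18 (SE, adjusted p = 0.000437) without FLAG IP 2 and 1.27 ± 0.48 (SE, adjusted p = 0.202) with it. LINC00653, which overlaps LINC00652 on the opposite strand, read 2.61, 2.98 and 2.43 CPM in the lysates and 14.3, 1.99 and 15.9 CPM in the immunoprecipitates, with a log2 fold change of 2.50 ± 0.19 (SE, adjusted p = 9.22e-05) without FLAG IP 2 and 2.01 ± 0.74 (SE, adjusted p = 0.192) with it. In LINC00938 FLAG IP 2 was above all lysates, in LINC00641 it was within their range, and in LINC00653 it was below them. LINC00652 itself read 0.862, 0.632 and 1.04 CPM in the lysates and 0.551, 0.441 and 0 CPM in the immunoprecipitates and passed the test in neither fit. LINC00667 read 20.3, 19.8 and 17.8 CPM in the lysates and 55.6, 18.3 and 45.1 CPM in the immunoprecipitates, with a log2 fold change of 1.38 ± 0.12 (SE, adjusted p = 0.000167) without FLAG IP 2 and 1.04 ± 0.41 (SE, adjusted p = 0.210) with it. It overlaps 3 genes on the other strand, and the sources do not state if the counting was stranded.

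**Figure D4:**
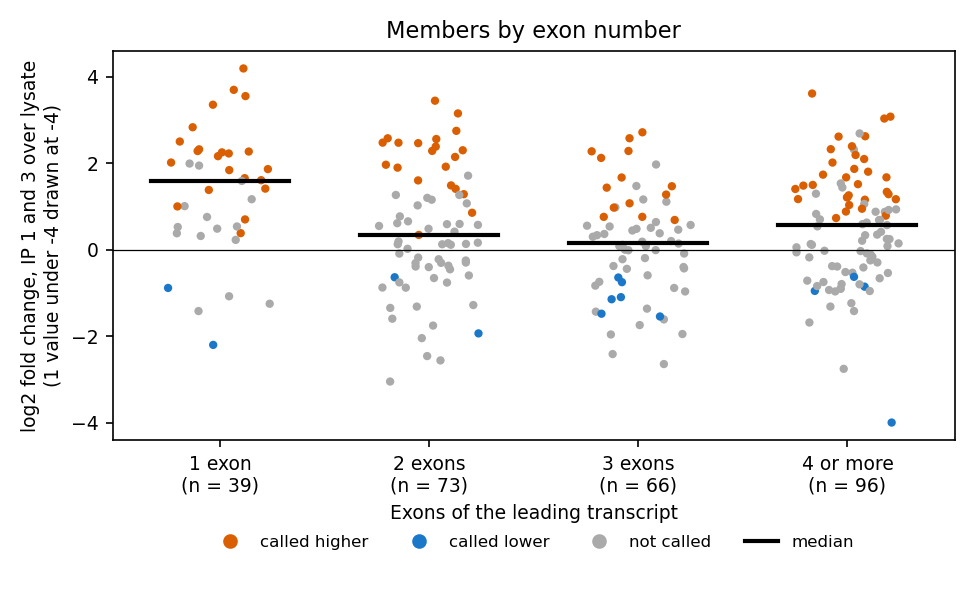
Log2 fold change of each member, FLAG IP 1 and 3 over the 3 lysates, by the number of exons in its leading transcript; each point is 1 member, coloured by its call at an adjusted p below 0.05 (edgeR), and black bars are class medians. The medians are 1.59 for 1 exon, 0.34 for 2, 0.16 for 3 and 0.58 for 4 or more, and 1 member (LINC02331) below -4 is drawn at -4.

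Despite the intergenic name, 146 members overlapped the span of another annotated gene, 69 of them on the same strand, and 128 overlapped none. The share that rose without FLAG IP 2 was 41 of 128 (32.0%) among those that overlap none and 48 of 146 (32.9%) among the rest, beside 28.4% of all tested genes. A protein-coding gene lay within 10 kb of 101 members or overlapped them, most often with the member downstream of it (31) or divergent from it (20). For 94 of these pairs both genes were tested. Across the pairs the log2 fold changes without FLAG IP 2 had a Spearman rho of 0.10, given as a description since all pairs share the same libraries. In 34 pairs the member rose (36.2%, beside 28.4% of all tested genes) and in 38 the coding neighbour (40.4%, beside 29.3% of protein-coding genes). Both rose in 15 pairs, which is 44.1% of the 34.

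Divergent pairs, whose starts face away from each other over a short distance, gave 19 tested pairs. The member rose in 6 of these (31.6%), the coding partner rose in 5 (26.3%) and fell in 8 (42.1%, beside 30.3% of protein-coding genes), and both rose in 2. The pairs named here were chosen after their values were seen. LINC01089 starts 103 bp from SETD1B, a histone methyltransferase gene, and had a log2 fold change of 1.48 without FLAG IP 2 while SETD1B had 0.12. LINC00938 lies 1846 bp from ARID2, a chromatin remodelling subunit gene, with 1.84 for the member and 0.13 for ARID2. LINC00205 starts 137 bp from POFUT2, a protein O-fucosyltransferase gene, with 0.11 for the member and -1.37 for POFUT2. In these 3 pairs the member's value was the higher of the pair.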

How the data were processed

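The data are 3 lysate and 3 FLAG IP libraries of HK2 cells, made from oligo(dT)-selected RNA with dUTP strand marking, per the labels' protocols. The gene table deposited by the authors holds raw counts per gene and FPKM, and a second deposited table holds the same counts for all genes. Per the submitters' processing notes the tools were HISAT2 2.2.1, cutadapt 1.9 and StringTie 2.1.6 beside DESeq2 and edgeR, on GRCh38.p14, and neither their order nor their roles are stated. The strand setting of the counting is not stated either.

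CPM is the count divided by the library total. The deposited counts were fitted with edgeR 4.0.16 in R 4.3.3 (quasi-likelihood test, default expression filter, library totals as scale because the member rule compares libraries that way, Benjamini-Hochberg over all tested genes, threshold 0.05), over 6 libraries and without FLAG IP 2. Fold changes are precipitate over lysate. Alternatives were TMM and other scalings, other filters, DESeq2 1.42.0, limma 3.58.1 on log2(FPKM + 1) and log2(FPKM + 0.1), a replicate block and leaving out each library. The code was tested on simulated data in which all libraries shared the same spread and none stood apart. That test does not bear on calls under the spread that FLAG IP 2 brings. Non-overlap means that all immunoprecipitates of a comparison lie on 1 side of all lysates. Overlaps, neighbours within 10 kb and leading transcripts come from the deposited gene and transcript tables, and promoters and microRNAs from RefSeq on GRCh38.p14.

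Members named are those called over 6 libraries, the 12 largest and 12 smallest fold changes among non-overlapping members, and the 8 highest mean CPM. Also named are the 4 highest and 4 lowest differences of FLAG IP 2 from FLAG IP 1 and 3. So are 3 of those nearest to the count minimum on either side, where counts were tied, and the members of the role list. Others are said to be chosen after their values were seen. The members, the lists and the fit without FLAG IP 2 were chosen with earlier results of these data known.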

Additional observations from a re-analysis of the deposited data

How the results depend on the processing

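The counts of calls depended on the library labelled FLAG IP 2. Leaving out each library in turn gave 0 to 89 members called higher and 0 to 14 lower, and 0 to 6266 and 0 to 5012 of all genes. The upper ends come from leaving out FLAG IP 2. Leaving out any of the other 5 gave 0 calls in each. In those 5 edgeR fits, 26 to 69 members and 2169 to 3854 of all tested genes had an unadjusted p below 0.05. With DESeq2, 37 members were higher and 6 lower, and 1942 and 1213 of all genes. Without a filter on low counts 0 members were higher, and 2 genes higher and 5 lower in all. A filter of 30 counts in 3 libraries gave 55 genes higher and 95 lower. On log2(FPKM + 1), limma called 0 members and 21 genes higher, and 0 members and 83 genes lower. With the replicate block, 0 members and 0 genes were called higher and 0 genes lower. Deviations of same-numbered libraries from their group means correlated at r = -0.0236, -0.0626 and 0.0179. With 3 libraries per group and FLAG IP 2 far from the other immunoprecipitates, this cannot show whether the numbers pair the samples. LINC01106 had an adjusted p of 0.375 with the block, 0.089 without a filter and 0.0509 on log2(FPKM + 1). In the fit without FLAG IP 2, DESeq2 called 24 members lower, and leaving out a further library gave 60 to 106 members higher and 6 to 61 lower; the 61 came without FLAG IP 1 and the 29 without FLAG IP 3, where 1 immunoprecipitate is left, the spread comes from the 3 lysates and the lone library is assumed to vary like them. Of 53 named members, 42 kept their direction under every alternative. Leaving out 1 library at a time turned the sign of 11. The log2 fold change then ranged from -0.46 to 0.34 for LINC00973, -0.36 to 0.11 for LINC00205, -0.43 to 0.08 for LINC01116, -1.44 to 2.74 for LINC00460, -0.72 to 3.81 for LINC01232, -1.69 to 2.89 for LINC01224, -0.91 to 3.15 for LINC01411 and -0.93 to 0.94 for LINC00842, where FLAG IP 2 was the library that turned it. It ranged from -0.32 to 0.88 for LINC00607 and -0.39 to 0.26 for LINC00339, turned by FLAG IP 3, and from -0.57 to 0.11 for LINC01215, turned by FLAG IP 3 or lysate 1. With the replicate block it was -0.68 for LINC01224, -0.75 for LINC00607 and -0.66 for LINC00842, and with limma on log2(FPKM + 0.1) -0.02 for LINC00607 and -0.14 for LINC00842. The cause of these reversals was not tested. The depth limits members near 30 counts, where 1 library at 0 sets the fold change.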
